A study of Mus musculus with 6 samples.

Results

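The 9 genes described here encode the core machinery that makes and uses small regulatory RNAs. They are the Argonautes Ago1, Ago2, Ago3 and Ago4, the nucleases Drosha and Dicer1, their double-stranded RNA-binding partners Dgcr8 and Tarbp2, and the nuclear export receptor Xpo5. They were taken by name from the 19939 genes with a probe set of exactly 1 gene symbol, and each gene was represented by its probe set with the highest mean over the 6 arrays. All 9 were measured. Levels came from microarrays of oocytes at the germinal vesicle stage, the fully grown oocyte arrested before its first meiotic division. The 3 mutant samples came from mice homozygous for a Brwd1 mutation, and the 3 wildtype samples from mice without it, both on a B6/C3H background. Females of both groups were 2 to 6 months old and received 5 IU of equine chorionic gonadotropin 44 h before collection, and each sample pooled 100 oocytes. Which part of Brwd1 the mutation affects is not stated in the labels, nor whether different animals supplied the pools, so every p-value reflects only the spread between these 6 samples and that spread may be technical.

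MicroRNA genes are copied into long primary transcripts, which Drosha cuts into hairpins in the nucleus together with Dgcr8, a pair known as the Microprocessor. Xpo5 carries the hairpins to the cytoplasm, where Dicer1, helped by Tarbp2, trims them to short duplexes, and an Argonaute takes up 1 strand and uses it to find matching messenger RNAs. Mouse oocytes are known for a second class, endogenous small interfering RNAs, which Dicer1 cuts from long double-stranded RNA without the Microprocessor and which guide Ago2, the Argonaute of mammals best known for cutting its target. The microRNA pathway itself is known to be weak in these cells, and oocytes without Dgcr8 can mature, whereas those without Dicer1 or Ago2 form defective spindles. Mouse oocytes also use a shortened form of Dicer1 that starts within the gene. Dicer1 had 1 probe set here, and where its probes lie in the gene is not given. Its values do not separate that form from the full one.

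All levels below are log2 values normalized across arrays, so a difference of 1 is a 2-fold difference against the bulk of the transcripts measured on that array. The Brwd1 probe set was at 4.41, 4.56 and 4.50 in mutant 1, 2 and 3, against 8.91, 9.08 and 8.98 in wildtype 1, 2 and 3, lower in every mutant sample. As a background guide, the 95th percentile of the mean level of 1205 probe sets for olfactory and vomeronasal receptors was used, which was 4.48 (their median was 3.14). All 11 oocyte markers lay above this guide, and the 4 of smallest p among them differed by -0.097 for Nlrp5, 0.19 for Figla, 0.077 for Nobox and 0.083 for Zp1, with 0 of the 11 at a limma unadjusted p under 0.05. Over all probe sets 14.7% were at such a p. Above the guide also lay 9 of 13 granulosa and cumulus markers, 3 of 8 theca and stroma markers and 5 of 10 blood, immune and endothelial markers. Arrays of different groups correlated at r of 0.992 to 0.993 and arrays of the same group at 0.994 to 0.995 (Pearson, across all probe sets, which are not independent of each other). In pooled cells, fewer cells of a type and less RNA per cell cannot be told apart.

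None of the 9 genes passed the threshold of 0.05 for the adjusted p (limma, Benjamini-Hochberg over 23410 probe sets), where 0.137% of all probe sets passed. At an unadjusted p under 0.05, 1 of 9 was called, Ago1, which was higher in the mutant oocytes, against 14.7% of all probe sets. Ago1 was also the 1 gene of the 9 whose groups did not overlap, as was the case for 19.7% of all probe sets. A share of 1 in 9, or 11.1%, is no higher than these backgrounds. Of the 9 differences, 5 were above 0 and 4 below, with a median of 0.030, against a median of 0.010 over all probe sets tested. The 4 Argonautes had a median difference of 0.14 and the 5 genes of biogenesis one of -0.050. The Argonaute median includes Ago4, under the background guide, and Ago2, whose 2 probe sets differed in sign.

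**Figure D1:**
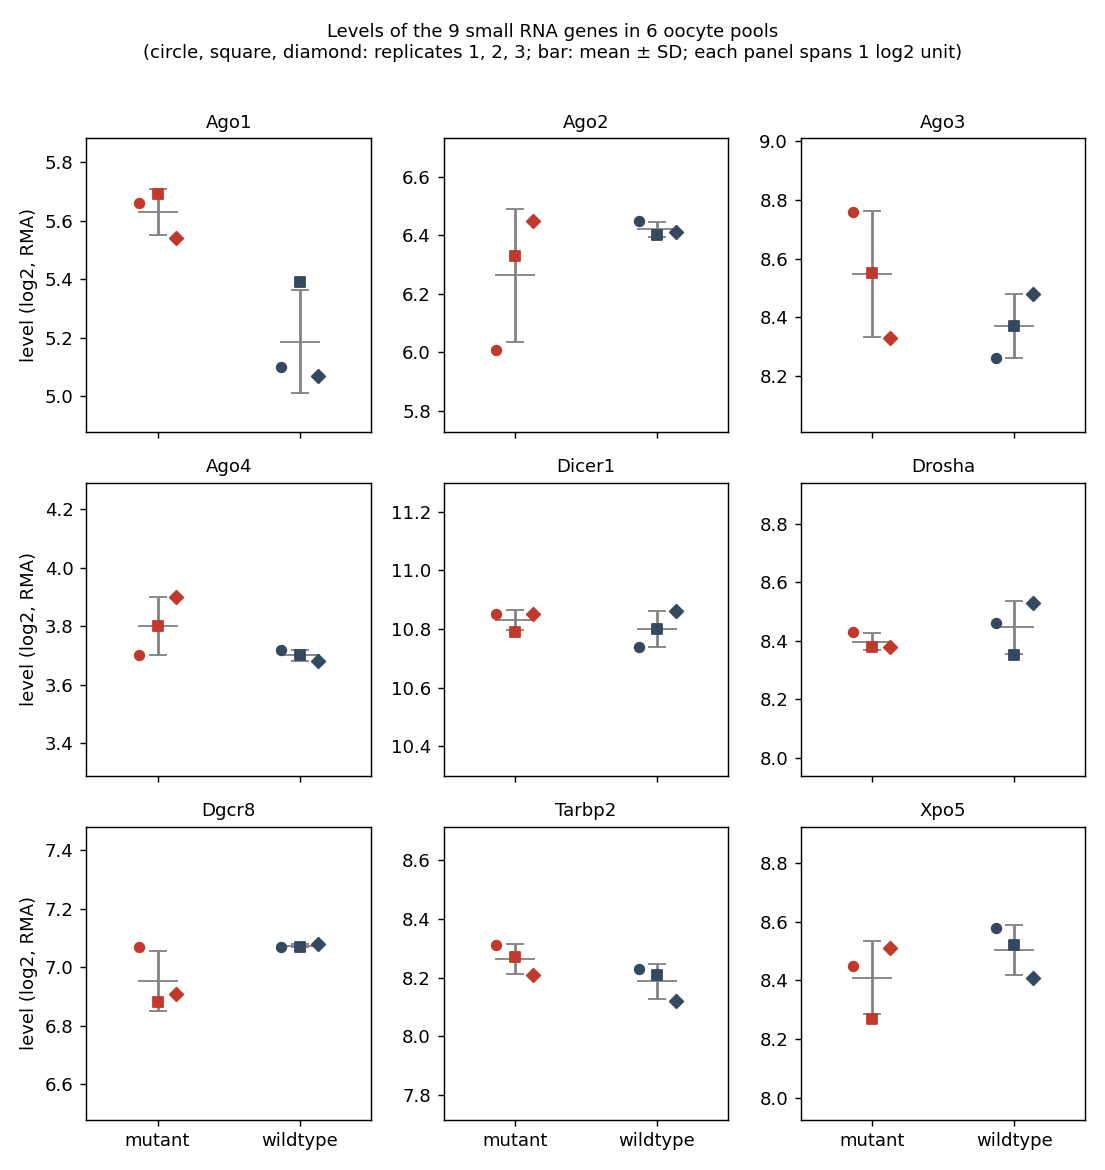
Level of each of the 9 genes (y axis, log2, each panel spanning 1 log2 unit) in mutant samples (left, red) and wildtype samples (right, dark blue), with circles, squares and diamonds for replicates 1, 2 and 3 and bars for the mean ± SD (n = 3). The groups separate for Ago1, with mutant values of 5.54 to 5.69 against wildtype values of 5.07 to 5.39, and overlap or touch for the other 8 genes.

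Ago1 encodes an Argonaute that silences its targets mainly without cutting them. Its level was 5.66, 5.69 and 5.54 in mutant 1, 2 and 3, against 5.10, 5.39 and 5.07 in wildtype 1, 2 and 3. Every mutant sample lay above every wildtype sample, and wildtype 2 came closest to the mutant samples. The means were 5.63 ± 0.079 in mutant and 5.19 ± 0.18 in wildtype samples (SD, n = 3 per group). The log2 difference was 0.44 (SE 0.099, 95% confidence interval 0.21 to 0.68), or 1.36-fold, with a limma unadjusted p of 0.00303 and an adjusted p of 0.156. By p-value Ago1 ranked 453rd of the 23410 probe sets. The difference ran from 0.385 to 0.545 with 1 array left out, and the limma adjusted p from 0.177 to 0.344.

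Probe sets as dim as Ago1 tended to be higher in the mutant samples in general. With all probe sets cut into 10 equal bins by mean level, the bin of Ago1, from 5.27 to 6.11, held 2337 probe sets, and their median difference was 0.043. In that bin 12.5% were higher at a limma unadjusted p under 0.05 and 7.66% lower, and 2.91% differed by at least as much as Ago1 in the same direction. In the bin that holds Ago3, Drosha, Tarbp2 and Xpo5, at 8.15 to 9.37, the median was -0.050. The summed level of the 10 blood, immune and endothelial markers, on the linear scale, was 474 to 567 in mutant and 400 to 448 in wildtype samples, and 9 of the 10 were higher in the mutant. Of that list Csf1r, Cd34, Kdr, Adgre1 and Ptprc were under the background guide. The sum of the 8 theca and stroma markers was 191 to 199 in mutant and 181 to 184 in wildtype samples, with 6 higher and Pdgfra, Cyp17a1, Acta2, Dcn and Lum under the guide. The 13 granulosa and cumulus markers summed to 1088 to 1191 in mutant and 951 to 1099 in wildtype samples, with 10 higher and Amhr2, Amh, Fshr and Kitl under the guide. In such sums the brightest genes weigh most. These were Nr5a2 and Gata4 here, at mean levels of 8.97 and 8.02, and Pecam1 and C1qb in the blood list, at 7.75 and 6.45. Median differences were 0.12 for the blood list, 0.068 for theca and stroma and 0.11 for granulosa and cumulus. Over all probe sets, the bins from 4.16 to 4.67 and 4.67 to 5.27 had medians of 0.067 and 0.073. At a limma unadjusted p under 0.05, 4 of the 13 granulosa and cumulus markers were called, or 30.8%, with 3 higher and 1 lower. So were 2 of the 10 blood, immune and endothelial markers, or 20%, and 1 of the 8 theca and stroma markers, or 12.5%, all higher. Over all probe sets 14.7% were called, and 12350 of 23410 were higher in the mutant. Groups did not overlap for 3, 1 and 2 markers in that order of lists, against 19.7% of all probe sets. No marker of these 3 lists passed the threshold. The marker with the smallest p was C1qb, a complement subunit made by macrophages, at 6.71, 6.92 and 7.06 in mutant samples, against 5.74, 5.76 and 6.49 in wildtype samples (log2 difference 0.90; limma, adjusted p = 0.162). Its groups did not overlap, and the next 3 of the blood list, C1qa, Csf1r and Cd34, differed by 0.18, 0.19 and 0.14. Among granulosa and cumulus markers the differences were 0.29 for Gata4, 0.49 for Has2, 0.19 for Amhr2 and -0.57 for Ptgs2, the enzyme that starts prostaglandin synthesis. Among theca and stroma markers they were 0.27 for the collagen gene Col3a1, 0.12 for Col1a1, 0.12 for Pdgfra and 0.087 for Col1a2. Whether cells of these types were present was not tested, nor was any part of them or of the level trend in the Ago1 difference.

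The sequence before Ago1 is shown because Ago1 is the 1 gene of the 9 with separate groups. These 174 bases end where the annotated gene begins (RefSeq, GRCm38.p6, chr4:126468708-126468881, minus strand). Both starts of Ago1 in the promoter table lie further in, the more upstream of them by 76 bases. Capitals mark 1 match to the GC box GGGCGG, searched on both strands. The CCAAT box CCAAT and the TATA box TATAAA had 0 matches in this stretch.
Ago1: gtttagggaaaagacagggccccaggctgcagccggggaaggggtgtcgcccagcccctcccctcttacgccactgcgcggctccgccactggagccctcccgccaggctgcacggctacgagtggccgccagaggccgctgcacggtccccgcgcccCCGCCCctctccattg
Promoter windows of 300 bases were listed for 8 of the 9 genes, and 7 of the 8 held a GC box, against 35.7% of all 32851 windows. A CCAAT box was in 5 of the 8, against 37.4% of all windows, and the TATA box in 0 of the 8, against 13.6%. Their content of G and C bases, 59.0% to 83.3%, lay above the median of 52.7% over all windows. These matches describe letters in the windows and bear on no difference between the groups.

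In the RefSeq gene table, Ago3, Ago1 and Ago4 follow each other on mouse chromosome 4 without another gene between them, and Ago2 lies on chromosome 15. Ago3 encodes an Argonaute whose role is less well defined. It was at 8.76, 8.55 and 8.33 in mutant 1, 2 and 3, against 8.26, 8.37 and 8.48 in wildtype 1, 2 and 3. The order of the values did not separate the groups, since mutant 3 lay below wildtype 2 and 3. The log2 difference was 0.18 (95% confidence interval -0.10 to 0.46; limma, adjusted p = 0.530). With 1 array left out it ran from 0.07 to 0.285. The 0.285 came without mutant 3, the 1 mutant sample within the wildtype range, so the groups then had to separate. The limma unadjusted p was then under 0.05, with an adjusted p of 0.412. With 1 array left out, 27.7% to 33% of all probe sets had groups that did not overlap.

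Ago4 is an Argonaute known for its part in male meiosis in the mouse. Its level was 3.70, 3.80 and 3.90 in mutant samples, against 3.72, 3.70 and 3.68 in wildtype samples. All 6 values lay under the background guide of 4.48, so no fold is given. The groups overlapped, with mutant 1 level with wildtype 2.

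Ago2, the Argonaute that cuts its targets, has a pair of probe sets, and they pointed in opposite directions. The brighter was at 6.01, 6.33 and 6.45 in mutant 1, 2 and 3, against 6.45, 6.40 and 6.41 in wildtype 1, 2 and 3, a log2 difference of -0.16 (95% confidence interval -0.42 to 0.11; limma, adjusted p = 0.561). The 3 wildtype values lay within a narrow band (SD 0.026), and mutant 1 stood well below the other 2 mutant samples (SD 0.23). On the dimmer probe set Ago2 was at 5.67, 6.37 and 5.93 in mutant samples, against 5.44, 5.91 and 5.74 in wildtype samples, a log2 difference of 0.29 (95% confidence interval -0.17 to 0.76; limma, adjusted p = 0.528). Here mutant 1 was again the lowest of its group and mutant 2 the highest. The changes of the 2 probe sets differed by -0.45 (exact permutation test, two-sided, p = 0.2, where 3 against 3 samples allow no p under 0.1), so this test could not settle whether the probe sets disagree, and no direction is given for Ago2.

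**Figure D2:**
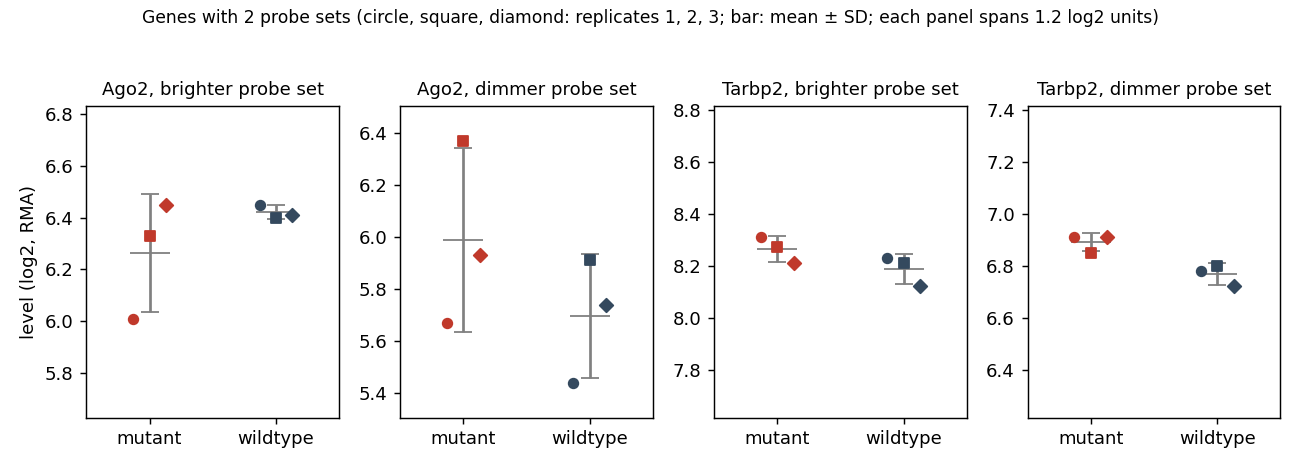
Levels (y axis, log2, each panel spanning 1.2 log2 units) on both probe sets of Ago2 and of Tarbp2, in mutant samples (left, red) and wildtype samples (right, dark blue), with circles, squares and diamonds for replicates 1, 2 and 3 and bars for the mean ± SD (n = 3). The Ago2 differences have opposite signs, -0.16 and 0.29, and the Tarbp2 differences the same sign, 0.077 and 0.12.

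Whether the Argonautes differed from each other in their change was tested on the 6 pairs, as the level of one minus that of the other in each array. The Ago1 minus Ago2 gap was -0.63 ± 0.28 in mutant and -1.23 ± 0.19 in wildtype samples (SD, n = 3 per group), so the gap was 0.60 smaller in the mutant (exact permutation test, two-sided, p = 0.1, adjusted p = 0.3 over the 6 pairs). On the dimmer Ago2 probe set, an alternative added after seeing the data, the gap was -0.36 ± 0.34 in mutant and -0.51 ± 0.17 in wildtype samples (SD, n = 3 per group), 0.15 smaller in the mutant (exact permutation test, two-sided, p = 0.7). The size of this gap therefore depended on which Ago2 probe set was used. Each gap is compared between groups only, since levels of different probe sets are not on a common scale. Ago2 against Ago4 also reached the smallest p of 0.1, with a difference of -0.26, but Ago4 was under the background guide and the difference was 0.19 on the dimmer Ago2 probe set. The other 4 pairs had exact p-values of 0.2 to 0.8, and for Ago1 against Ago3 the difference was 0.27 (p = 0.2). With 3 samples a group no p under 0.1 was possible, so this test says nothing either way on whether Ago1 changed apart from the other Argonautes.

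Dicer1, the nuclease that makes both microRNAs and endogenous small interfering RNAs, lay far above the background guide and varied little. Its level was 10.85, 10.79 and 10.85 in mutant samples, against 10.74, 10.80 and 10.86 in wildtype samples. The groups overlapped almost fully. The log2 difference was 0.030 (SE 0.059; limma, adjusted p = 0.844), and the 95% confidence interval, -0.11 to 0.17, spans 1.08-fold lower to 1.12-fold higher. Among the 9 genes this interval and that of Tarbp2 bounded the difference most tightly.

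Tarbp2 encodes the double-stranded RNA-binding partner of Dicer1 that is also known as TRBP. It was at 8.31, 8.27 and 8.21 in mutant 1, 2 and 3, against 8.23, 8.21 and 8.12 in wildtype 1, 2 and 3. The groups touched, with mutant 3 at the level of wildtype 2, and the log2 difference was 0.077 (95% confidence interval -0.067 to 0.22; limma, adjusted p = 0.599). The dimmer probe set was at 6.91, 6.85 and 6.91 in mutant and 6.78, 6.80 and 6.72 in wildtype samples. There the groups did not overlap, and the log2 difference was 0.12 (95% confidence interval -0.0086 to 0.26; limma, unadjusted p = 0.0627, adjusted p = 0.368).

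The nuclear step was represented by Drosha, Dgcr8 and Xpo5, all 3 slightly lower in the mutant samples on average and all 3 without a call. Drosha, the nuclease, was at 8.43, 8.38 and 8.38 in mutant samples, against 8.46, 8.35 and 8.53 in wildtype samples. Its groups overlapped, with a log2 difference of -0.050 (95% confidence interval -0.21 to 0.11; limma, adjusted p = 0.759). Xpo5, the export receptor, was at 8.45, 8.27 and 8.51 in mutant samples, against 8.58, 8.52 and 8.41 in wildtype samples. These groups overlapped as well, and the log2 difference was -0.093 (95% confidence interval -0.29 to 0.11; limma, adjusted p = 0.641).

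Dgcr8, which recognises the hairpin for Drosha, was at 7.07, 6.88 and 6.91 in mutant 1, 2 and 3, against 7.07, 7.07 and 7.08 in wildtype 1, 2 and 3. Mutant 1 lay at the wildtype level and mutants 2 and 3 below it. The log2 difference was -0.12 (95% confidence interval -0.28 to 0.040; limma, adjusted p = 0.457), and the interval reaches 1.21-fold lower. With 1 array left out the difference ran from -0.18 to -0.083. The -0.18 came without mutant 1, the 1 mutant sample at the wildtype level, so the groups then had to separate. The limma unadjusted p was then under 0.05, with an adjusted p of 0.282. With 1 array left out, 27.7% to 33% of all probe sets had groups that did not overlap. Dgcr8 is known to be cut by its own complex, because its transcript folds into hairpins. One annotated hairpin inside the gene, on the same strand, is Mir1306 (RefSeq, GRCm38.p6, chr16:18284239-18284317, minus strand), shown here as an example of the Microprocessor's substrate with the mature strands in capitals. Mir1306 has no single-symbol probe set of its own among those used here.
Mir1306: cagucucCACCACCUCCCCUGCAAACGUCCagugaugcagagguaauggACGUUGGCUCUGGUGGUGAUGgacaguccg

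**Figure D3:**
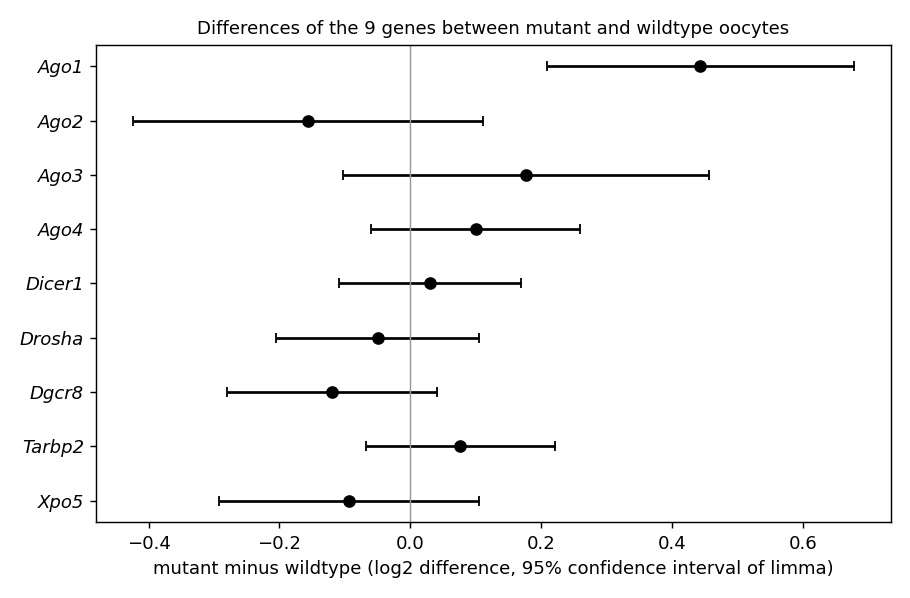
Mutant minus wildtype difference of each of the 9 genes (x axis, log2; points, limma estimates; bars, 95% confidence intervals; n = 3 per group). The interval of Ago1, 0.21 to 0.68, lies above 0, and those of the other 8 genes include 0.

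The 5 genes whose levels followed Ago1 most closely over the 6 arrays, among 12669 genes above the background guide, were Tmem67, Hdac7, Zfp651, Creb5 and Chrna7. Pearson's r with Ago1 was 0.997 for Tmem67, 0.991 for Hdac7, 0.988 for Zfp651, 0.986 for Creb5 and 0.985 for Chrna7. The 6 points share the 2 groups and the arrays, so these values are a description. The choice by likeness to Ago1, whose groups separate, favours genes that are higher in the mutant samples. Each of the 5 was, with log2 differences of 0.20 to 0.36 and limma adjusted p-values of 0.191 to 0.276.

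Proteins that carry out silencing with Argonaute gave no call either. Of 12 genes measured, 0 passed, with 6 higher and 6 lower and a median of -0.020. Groups did not overlap for 2 of the 12, against 19.7% of all probe sets. At a limma unadjusted p under 0.05, 1 was called, lower in the mutant, or 8.33%, against 14.7% of all probe sets. That gene was Limd1, a LIM-domain protein of the silencing complex, at 6.18, 6.18 and 6.16 in mutant samples, against 6.31, 6.32 and 6.35 in wildtype samples (log2 difference -0.15; limma, adjusted p = 0.259). Its groups did not overlap. Tnrc6a, a GW182 scaffold that recruits deadenylases, was at 7.40, 7.01 and 7.04 in mutant samples, against 6.59, 6.52 and 7.25 in wildtype samples (log2 difference 0.36; limma, adjusted p = 0.465). Wildtype 3 lay among the mutant values, so the groups overlapped. The translational repressor Gigyf2 was at -0.14 and the decapping scaffold Edc4 at -0.14.

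Chaperones that load Argonaute, tested with the Dicer1 partner Prkra, had a median difference of 0.040 over 11 genes. None passed, and groups did not overlap for 4 of the 11, against 19.7% of all probe sets. At a limma unadjusted p under 0.05, 1 was called, or 9.09%, against 14.7% of all probe sets. It was the immunophilin Fkbp4, a co-chaperone of Hsp90, at -0.27 (limma, adjusted p = 0.309). Hsp90aa1, the inducible Hsp90, was at 11.75, 11.79 and 11.83 in mutant samples, against 11.64, 11.67 and 11.73 in wildtype samples. Its groups did not overlap, with the closest values at 11.75 and 11.73, and the log2 difference was 0.11 (limma, adjusted p = 0.421). Ahsa1, which activates Hsp90, was at 0.10 and Hspa4 at -0.11. Prkra itself lay under the background guide.

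Cofactors of primary microRNA processing and export had a median of -0.043 over 15 genes, with 6 higher, 9 lower and 0 past the threshold. Groups did not overlap for 2 of the 15, against 19.7% of all probe sets. At a limma unadjusted p under 0.05, 1 was called, or 6.67%, against 14.7% of all probe sets. The gene called was Srsf3, a splicing factor that also helps the Microprocessor find human primary microRNAs. Srsf3 was at 9.58, 9.71 and 9.79 in mutant samples, against 10.04, 10.10 and 10.10 in wildtype samples. The groups were well apart, and the log2 difference was -0.39 (SE 0.070, 95% confidence interval -0.55 to -0.22; limma, adjusted p = 0.122). With eBayes run with trend and robust settings the limma adjusted p of Srsf3 was 0.0476, past the threshold. Across the 16 alternatives run, 0 to 1 of the 15 cofactors passed, and 1 to 76 of all probe sets, against 32 in the main fit. The other named cofactors were Srrt, which ties the cap-binding complex to the Microprocessor, at 0.197, the double-stranded RNA-binding Ilf2 at -0.16 and the export GTPase Ran at -0.10.

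Among 15 genes of small RNA tailing, trimming and decay the median was 0.0033, with 8 higher, 7 lower and 0 past the threshold. Groups did not overlap for 2 of the 15, against 19.7% of all probe sets. A share of 6.67% was called at a limma unadjusted p under 0.05, against 14.7% of all probe sets. The 1 gene called was Xrn1, the exonuclease that degrades uncapped RNA. It was at 6.69, 6.32 and 6.38 in mutant samples, against 6.76, 6.82 and 6.98 in wildtype samples (log2 difference -0.39; limma, adjusted p = 0.219). The groups did not overlap, although mutant 1 came close to wildtype 1. Lin28b, which blocks the maturation of let-7 microRNAs, was at -0.35 (limma, adjusted p = 0.374), the uridylyltransferase Tut7 at 0.13 and Zswim8, which triggers Argonaute degradation, at 0.14.

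For 11 genes that bind, edit or sense double-stranded RNA the median was -0.010, with 0 past the threshold. Of the 11, 0 were at a limma unadjusted p under 0.05, against 14.7% of all probe sets. Groups did not overlap for 3, against 19.7%. The RNA editor Adar was at 7.42, 7.63 and 7.57 in mutant samples, against 7.68, 7.65 and 7.73 in wildtype samples (log2 difference -0.15; limma, adjusted p = 0.397). The helicase Dhx36 was at 0.16, Zfr at -0.090 and the RNA transport protein Stau1 at -0.073.

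Of the 3 PIWI Argonautes measured, which bind piRNAs, Piwil1 was at 7.49, 7.37 and 7.36 in mutant samples, against 7.28, 7.15 and 7.29 in wildtype samples. The groups did not overlap, and the log2 difference was 0.17 (limma, unadjusted p = 0.0464, adjusted p = 0.330). Piwil2 was at 0.020, and Piwil4, under the background guide, at 0.060. The last list holds 4 genes known from work on mouse oocytes to be matched by small interfering RNAs made from their pseudogenes. It is a small subset of such genes, compiled from general knowledge rather than from a published table, and all 4 were measured. Pdzd11 was at 8.59, 8.67 and 8.71 in mutant samples, against 9.08, 8.76 and 8.83 in wildtype samples (log2 difference -0.23; limma, unadjusted p = 0.0419, adjusted p = 0.317). Ppp4r1 was at 0.087, Rangap1 at 0.023 and Kif4 at 0.020, with groups that overlapped. Signal from pseudogene copies cannot be told apart from that of these genes.

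**Figure D4:**
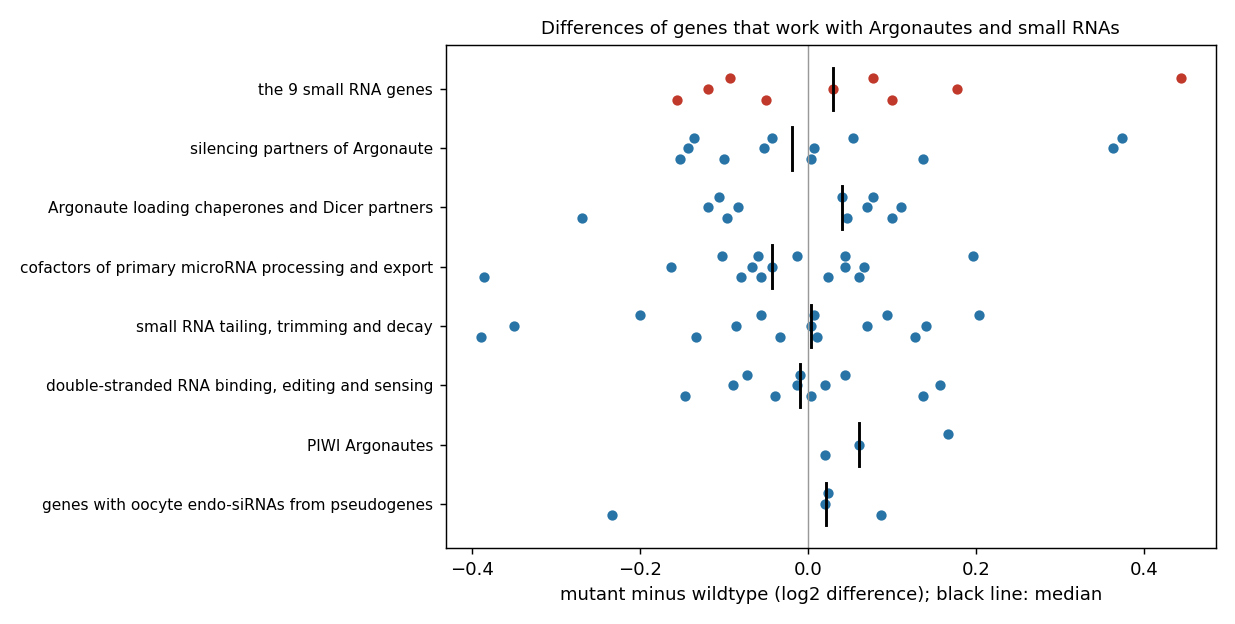
Mutant minus wildtype difference (x axis, log2) of the 9 small RNA genes (red) and of the genes in 7 related lists (blue), 1 point a gene and a black line at each median. The list medians lie between -0.043 and 0.060, and Ago1, at 0.44, is the rightmost point.

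The array also carries probe sets named after microRNA genes, the loci whose transcripts feed Drosha. They report RNA from the locus, precursor or host transcript alike, and not the mature microRNA. Of 305 such probe sets, from 300 genes, 0 passed the threshold (limma) and 71 lay above the background guide. The 305 include probe sets of the host genes Mir99ahg, Mir100hg, Mir670hg and Mir17hg, and a Mir99ahg probe set at 4.53 is among the 71. The lowest of the 10 bins of level held 142 of the 305. In that bin 1.32% of all probe sets were higher at a limma unadjusted p under 0.05 and 1.41% lower. At a limma unadjusted p under 0.05, 29 of the 305 were higher in the mutant, or 9.51%, against 7.3% of all probe sets, and 0 were lower, against 7.4%. This split depended on the scaling, with 15 higher and 9 lower after median centring, 22 and 4 after cyclic loess, 25 and 3 after quantile normalization again and 26 and 3 with eBayes run with trend and robust settings. With 1 array left out, 19 to 42 were higher, the 19 without mutant 2, and 0 to 3 lower. The median of the 305 was 0.020, and -0.037 after median centring.

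Those above the guide leaned further to the mutant side. Of the 71, 64 were higher in the mutant samples and 7 lower, and their median difference was 0.15, against -0.0067 for all 14890 probe sets above the guide. At a limma unadjusted p under 0.05, 28.2% of the 71 were higher, against 8.71% of the 14890, and 0 were lower, against 10.6%. Of the 71, 8 lay above the guide only through their mutant mean, Mir23a, Mir27a and Mir143 among them, and 0 only through their wildtype mean, so the choice of these 8 favours higher mutant values. Of the 63 with both group means above the guide, 56 were higher and 7 lower, with a median of 0.14, and 17 were higher at a limma unadjusted p under 0.05. The 14890 include many brighter probe sets, and the direction of calls varied with level. The 2 bins of level from 4.67 to 6.11, which hold 46 of the 71, had medians of 0.073 and 0.043 over all probe sets. In these bins 14.3% and 12.5% of all probe sets were higher at a limma unadjusted p under 0.05, and 3.76% and 7.66% lower. In the bin from 7.11 to 8.15, which holds 6 of the 71, 6.15% were higher and 18% lower. At or under the guide, the median of the 234 remaining was -0.015. The median of the 71 was 0.11 after quantile normalization again, 0.10 after cyclic loess and 0.097 after median centring, and 0.12 to 0.195 with 1 array left out. Median centring left 12 of the 71 higher at an unadjusted p under 0.05, in place of 20. Some of these loci lie in a shared transcript, as Mir23a and Mir27a do, so the probe sets are not independent and the counts are a description, and the part of the level trend was not tested.

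The 4 with the smallest p-values were Mir674, Mir222, Mir330 and Mir27a. Mir674 was at 5.56, 5.70 and 5.61 in mutant samples, against 5.15, 5.36 and 5.24 in wildtype samples (log2 difference 0.37; limma, adjusted p = 0.141). Mir330 was at 5.17, 5.49 and 5.20 in mutant samples, against 4.87, 4.98 and 4.84 in wildtype samples (log2 difference 0.39; limma, adjusted p = 0.186). In both the groups did not overlap. Mir27a was at 0.24, with its wildtype mean under the guide, and Mir222 at 0.27 with both means under it. Their mature sequences (RefSeq, GRCm38.p6) are shown with the seed, bases 2 to 8, in capitals, to show that no 2 of the listed strands share a seed. Sequences were found for 271 of the 300 genes.
mmu-miR-674-5p: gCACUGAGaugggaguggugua
mmu-miR-674-3p: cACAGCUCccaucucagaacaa
mmu-miR-222-3p: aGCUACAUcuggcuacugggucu
mmu-miR-330-5p: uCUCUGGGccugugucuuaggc
mmu-miR-330-3p: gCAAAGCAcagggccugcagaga
mmu-miR-27a-5p: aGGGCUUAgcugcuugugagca
mmu-miR-27a-3p: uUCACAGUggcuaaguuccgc

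**Figure D5:**
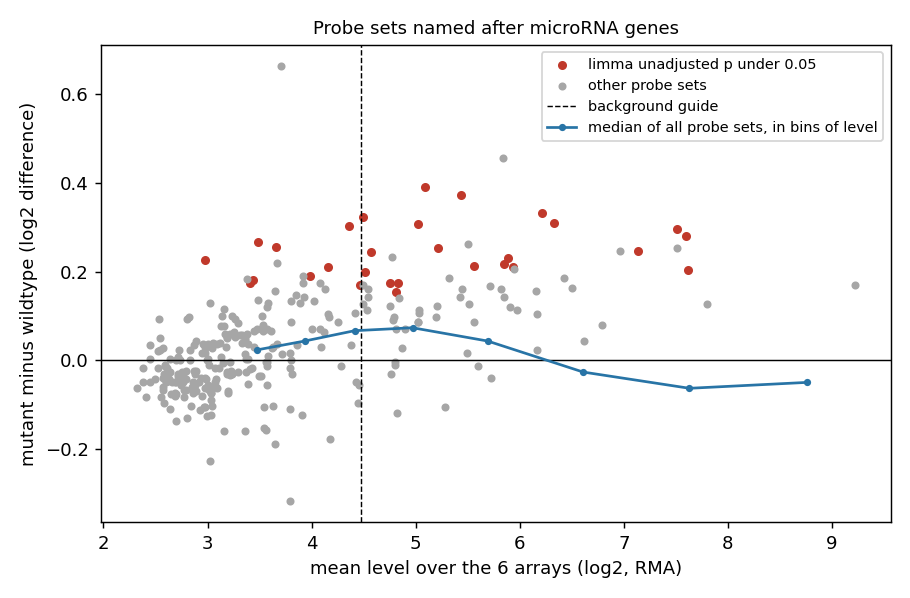
Mutant minus wildtype difference (y axis, log2) against mean level (x axis, log2) for the 305 probe sets named after microRNA genes, with those at a limma unadjusted p under 0.05 in red, the background guide as a dashed line and the median of all probe sets in bins of level, without the lowest and highest bin, in blue. To the right of the guide 64 of 71 points lie above 0.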

How the data were processed

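RNA of 6 pools of oocytes, 3 per genotype, was measured on Affymetrix mouse Gene ST arrays, 1 array a pool. Per the labels' protocols, amplification with a NuGEN Ovation Pico kit started from 1 ng of RNA. The deposited values are log2 values, made by the authors with Affymetrix Expression Console 1.1 and RMA, per the submitters' processing notes. RMA equalises the arrays, so a change in total RNA per oocyte cannot be seen, and it compresses differences of dim probe sets. For the array annotation no genome build is given in the sources used here, so genes get no coordinates. Of 35556 probe sets, 21789 had 1 gene symbol, 1621 several and 12146 none listed. All 23410 with a symbol were tested, and none was named from several symbols.

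Differences were fitted with limma 3.58.1 in R 4.3.3 (lmFit, eBayes, two-sided, unpaired), with Benjamini-Hochberg adjustment over the 23410. The number of arrays limits the precision. On simulated data for mutant against wildtype, with 200 of 23410 probe sets changed, the procedure recovered 50.2% of log2 differences of 0.5 and 86.6% of those of 1, and 4.65% of calls were false. Same-numbered samples did not deviate together (r of -0.0015, -0.031 and 0.036 for numbers 1, 2 and 3), so the numbers were not used as pairs. The genes, lists, tests and alternatives were chosen with earlier results of these data known. From each list of more than 5, the 4 members with the smallest p-values were given with values. Markers under the background guide, Mir23a, Mir143 and the microRNA host genes are named besides, after their values were seen. Hnrnpa1, Hsp90ab1, Cyp19a1, Lhcgr and Hba-a1 had no single-symbol probe set and were not analysed here. Alternatives are under the closing section, and the dimmer probe sets, also in the Argonaute pairs, and the guide on both group means were added after seeing the data.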

Additional observations from a re-analysis of the deposited data

How the results depend on the processing

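None of the 9 genes passed the threshold under any of the 16 alternatives run, the replicate block included, under which 0 passed, 1 was called at an unadjusted p under 0.05 and the median was 0.03. Ago1 kept its sign in all 16, at 0.385 to 0.545 (limma, adjusted p 0.128 to 0.344). The count whose groups do not overlap, 1 as reported, was 2 after quantile normalization again, cyclic loess and averaging of a gene's probe sets, where Tarbp2 joined Ago1, and 2 after median centring, where Ago2 did. Over all probe sets the share without overlap was 17.8% to 23.8% under the other alternatives but 27.7% to 33% with 1 array left out, since 2 against 3 arrays separate more easily. Leaving out 1 array moved the count of the 9 between 1 and 4, the 4 without mutant 3 (Ago1, Ago2, Ago3 and Tarbp2) and 3 without mutant 1 (Ago1, Ago4 and Dgcr8), and Drosha joined without wildtype 2 and Xpo5 without wildtype 3. The count at an unadjusted p under 0.05 moved between 1 and 2, with Dgcr8 added without mutant 1 and Ago3 without mutant 3. The median of the 9, 0.030 as reported, was -0.027 after median centring, which moves the median of all probe sets to -0.047. It was 0.068 when a gene's probe sets were averaged, 0.06 after cyclic loess, and 0 to 0.05 with 1 array left out. When the probe sets under the median level were dropped, Ago4 fell out, and the median of the remaining 8 was -0.01. Signs turned for Dicer1 after median centring (-0.027) and for Ago2 with the mean of its probe sets (0.068) or the dimmer one (0.29). With the dimmer Ago2 probe set the Ago2 minus Ago3 gap turned to 0.12, from -0.33, and the Ago2 minus Ago4 gap to 0.19, from -0.26. Over all probe sets, 1 to 76 passed, against 32 as reported. Ago4 was not tested among probe sets above the median level. The causes were not tested. Signal over background limits Ago4, and 3 samples a group limit all 9.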
